A study of Mus musculus with 10 samples.

Results

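Microglia are the resident macrophages of the brain, and 37 genes that mark them and their states were followed among the 47632 genes measured in mouse striatum. The genes were a given list, split by role. It held 14 homeostatic genes, 13 genes of myeloid cells in general, 3 genes of Trem2 and adaptors, and 7 disease-associated genes. The 3 were the receptor Trem2, its adaptor Tyrobp and the Fc receptor adaptor Fcer1g. The rule itself used no measured values, but the members and lists were chosen with earlier results of these data known. R6/2 mice carry a transgene with a fragment of human huntingtin and an expanded CAG repeat, driven by the human huntingtin promoter, and model Huntington's disease. The 5 R6/2 libraries (genotype as labelled: R6/2 Huntington's disease model) were set against 5 libraries of isogenic wild-type controls, all of purified striatal RNA from mice of 11 weeks. The labels give no treatment and do not say whether each library came from 1 animal, so p-values measure the spread between these libraries, which may be partly technical.

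In the healthy brain, microglia are kept in a surveying state by signals from their neighbours, among them transforming growth factor beta, colony-stimulating factors that act on Csf1r, and the neuronal proteins Cx3cl1 and Cd200, whose receptors sit on microglia. Purinergic receptors such as P2ry12 let their processes sense nucleotides released by nearby cells. In models of neurodegeneration and demyelination, microglia that meet debris lower these homeostatic genes and, through Trem2 and its adaptor Tyrobp, raise a disease-associated set that includes Apoe, Lpl, Cst7, Itgax and Spp1.

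Expression is given as FPKM (fragments per kilobase of transcript, scaled to library depth), which can be compared between genes. Low FPKM of single-transcript genes fell on regular steps, and between 89.6% and 91.7% of them per library lay within 5% of a whole number of fragments. The steps put the depth at about 5500000 to 11070000 fragments in R6/2 libraries and 5700000 to 8130000 in controls, so 1 FPKM of a transcript of 2000 bases stood for about 11.0 to 22.1 fragments. Most members lay below 10 FPKM, and their precision was limited accordingly.

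Few genes of the list passed the test, and those that did were all lower in R6/2. P2ry12 and P2ry13 among the homeostatic genes, Cd68 among the general myeloid genes and Lpl among the disease-associated genes were lower in R6/2 (limma, Benjamini-Hochberg adjusted p under 0.05). Of the 33 members with a mean of at least 1 FPKM, these 4 (12.1%) compare with 9.11% of all 15905 tested genes called lower. No member passed as higher by limma, against 5.00% of all tested genes. At an unadjusted p under 0.05, 7 of the 33 members were lower, against 2458 of the 15905 genes, and 2 (Ctss and Itgb5) were higher, against 1909 of the 15905. The median log2 change of the tested members was -0.18, against 0.00 over all tested genes, with 26 members below 0 and 7 above. The other 29 tested members did not pass in either direction, and Itgb2, Irf8, Cst7 and Itgax were too low to test. Members whose groups did not overlap numbered 5 lower (P2ry12, P2ry13, Mertk, Cd68 and Lpl; 8.58% of all tested genes) and 1 higher (Ctss; 4.50% of all tested genes).

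**Figure D1:**
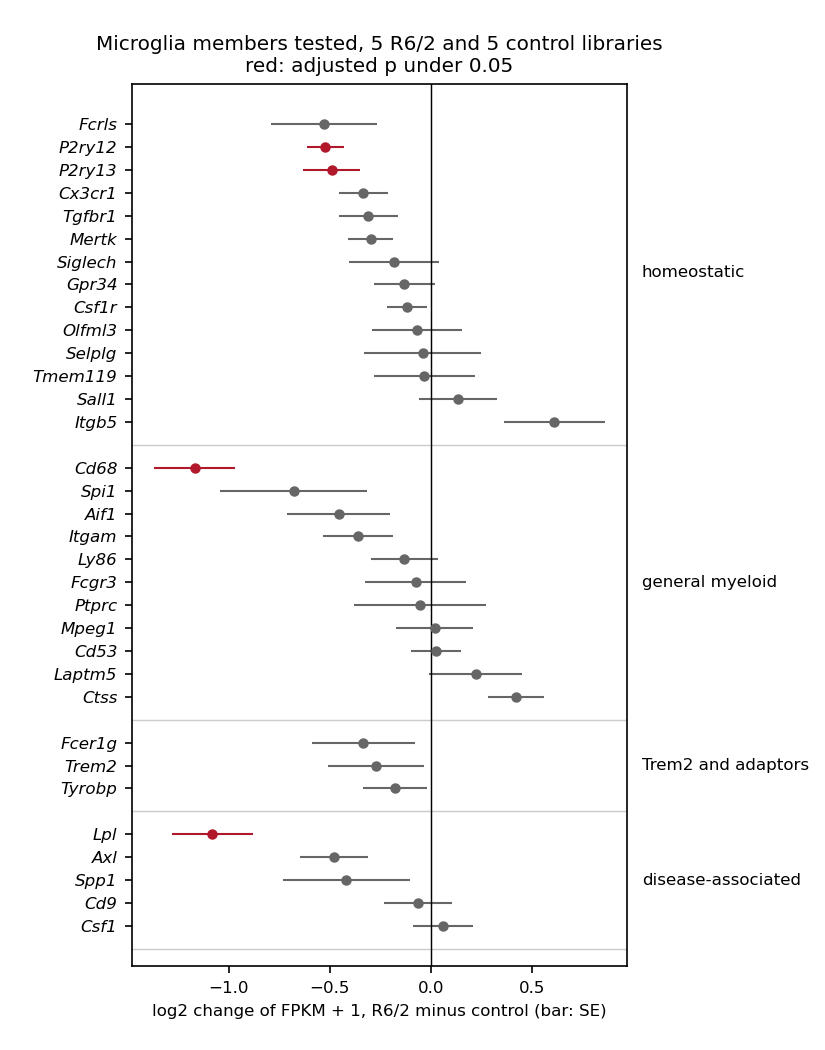
Log2 change of each tested member, R6/2 minus control, on the log2(FPKM + 1) scale with its standard error (5 libraries per group), grouped by role. P2ry12, P2ry13, Cd68 and Lpl passed the adjusted threshold, all below 0. The other members did not pass, with changes from -0.68 (Spi1) to 0.61 (Itgb5).

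The role groups did not move in opposite directions. Of the 14 homeostatic genes, all tested, 2 were lower, with a median log2 change of -0.16. Of the 11 tested general myeloid genes 1 was lower (median -0.08). Among Trem2, Tyrobp and Fcer1g none passed in limma or at an unadjusted p under 0.05 (0 of 3; median -0.27). Of the 5 tested disease-associated genes 1 was lower and 0 were higher, in limma or at an unadjusted p under 0.05, and the median was -0.42. In bulk tissue, fewer cells of a type and less RNA per cell cannot be told apart.

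**Figure D2:**
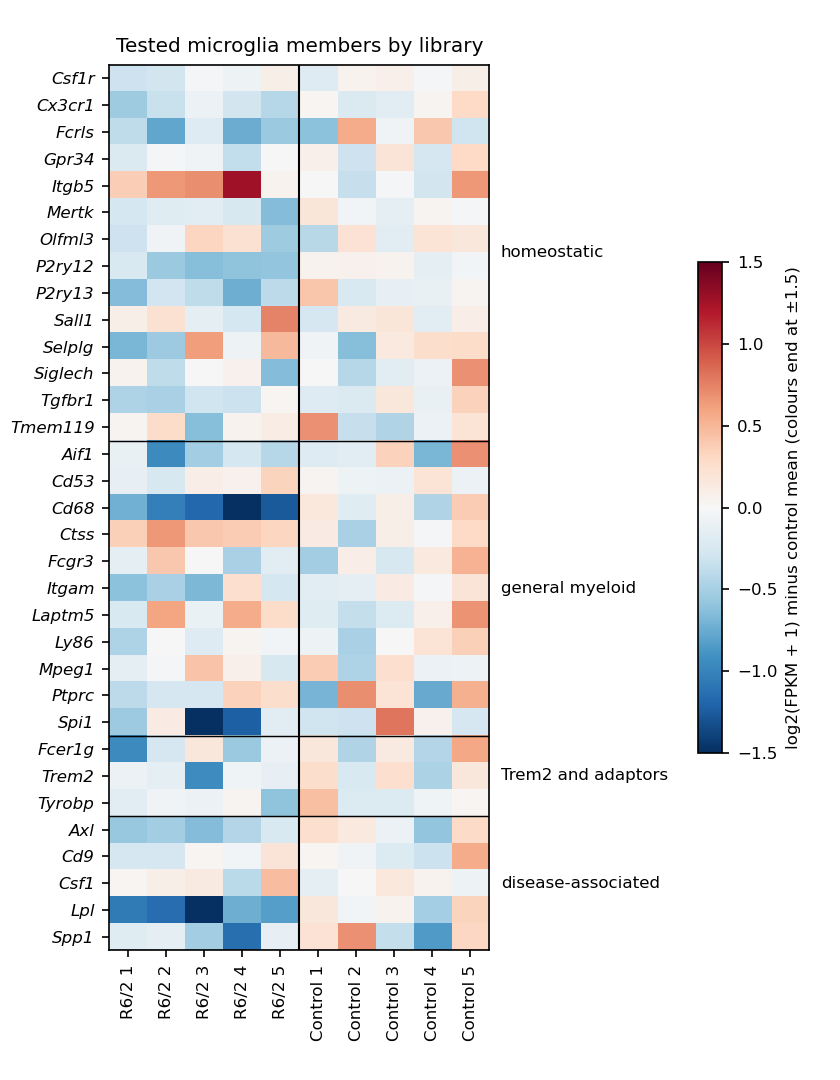
Each tested member in each library, as log2(FPKM + 1) minus the gene's control mean, with R6/2 libraries left of control libraries and genes ordered by role. Lpl, Cd68, P2ry12 and P2ry13 are lower across the R6/2 libraries, while control library 5 is the highest for 13 of the 33 members.

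Because P2ry12 and P2ry13 are neighbours and Cd68 showed the lowest log2 change of the list, the 250 bases before their RefSeq transcription starts (GRCm38.p6) are shown. The core of the binding motif of PU.1, the myeloid transcription factor encoded by Spi1, was searched as GAGGAA on either strand (TTCCTC on the other), and matches are in capitals. All 3 genes lie on the minus strand, and the sequences run 5′ to 3′ towards the gene.
Cd68, chr11:69666171-69666420: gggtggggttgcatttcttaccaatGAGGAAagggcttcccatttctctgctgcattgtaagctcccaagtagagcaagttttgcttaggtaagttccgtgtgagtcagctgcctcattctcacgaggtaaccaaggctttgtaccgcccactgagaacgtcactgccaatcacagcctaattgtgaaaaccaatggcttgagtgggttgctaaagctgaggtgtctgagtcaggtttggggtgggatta
P2ry13, chr3:59210883-59211132: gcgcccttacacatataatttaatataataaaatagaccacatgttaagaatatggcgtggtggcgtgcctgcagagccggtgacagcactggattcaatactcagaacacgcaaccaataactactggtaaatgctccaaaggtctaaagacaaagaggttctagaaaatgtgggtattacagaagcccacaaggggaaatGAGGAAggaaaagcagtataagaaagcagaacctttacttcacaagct
P2ry12, chr3:59262986-59263235: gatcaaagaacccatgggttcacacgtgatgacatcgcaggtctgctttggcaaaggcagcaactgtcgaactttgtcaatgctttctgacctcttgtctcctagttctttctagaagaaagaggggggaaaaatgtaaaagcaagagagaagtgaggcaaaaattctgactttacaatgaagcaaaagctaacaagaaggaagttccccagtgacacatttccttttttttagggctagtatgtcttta
Counted back from the base before the start as -1, the match began at position -225 in Cd68 and at position -48 in P2ry13, and the P2ry12 window held none. RefSeq promoters were found for 29 of the 37 members, and 15 of their 36 windows (41.7%) held the motif, against 7639 of 32851 windows of all genes (23.3%). A match is a description of letters, not a bound site.

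P2ry12 is the receptor with which microglia sense ADP and is among their most specific homeostatic markers. It had 12.8, 9.96, 9.36, 9.61 and 9.73 FPKM in R6/2 libraries 1 to 5, against 15.7, 15.9, 15.7, 13.7 and 14.7 FPKM in control libraries 1 to 5. Every R6/2 library lay below every control library, and R6/2 library 1 stood above the other R6/2 libraries. The means were 10.3 ± 1.41 FPKM in R6/2 and 15.1 ± 0.908 FPKM in controls (SD, n = 5 each), a ratio of 0.679 and a log2 change of -0.52 (SE 0.09; limma adjusted p = 0.00454). P2ry12 (ENSMUSG00000036353.13; chromosome 3, 59216272 to 59262871 in GENCODE M21 on GRCm38) shares exon sequence with Med12l on the opposite strand, and the strand setting of the counting is not given. Med12l, a Mediator subunit named for that overlap after its values were seen, averaged 6.68 FPKM in R6/2 and 5.49 FPKM in controls (log2 change 0.24; limma adjusted p = 0.214). Cx3cr1, Csf1r and Cd9 likewise share exon sequence with a gene on the opposite strand, so their levels carry the same uncertainty. Itgam shares it with Gm49368 and Spp1 with Gm42793 on the same strand, which no strand setting separates. Of these 2 genes, named after their values were seen, Gm42793 was listed at 0 in every library. Gm49368 averaged 0 FPKM in R6/2 and 0.272 FPKM in controls.

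P2ry13, a related ADP receptor, lies next to P2ry12 (ENSMUSG00000036362.2; chromosome 3, 59207892 to 59210882). It had 2.63, 3.67, 3.38, 2.44 and 3.35 FPKM in R6/2 libraries, against 6.59, 3.89, 4.26, 4.29 and 4.89 FPKM in control libraries. The groups did not overlap, but R6/2 library 2 and control library 2 lay close together. The means were 3.09 ± 0.530 FPKM in R6/2 and 4.78 ± 1.07 FPKM in controls (SD, n = 5 each), with a log2 change of -0.49 (SE 0.14; limma adjusted p = 0.0452). This call sat at the threshold and held in 4 of 19 alternative settings, with adjusted p between 0.0403 and 0.315. The receptor gene P2ry14 in the same stretch, chosen by its position, averaged 5.72 FPKM in R6/2 and 5.88 FPKM in controls (log2 change -0.04; limma adjusted p = 0.842).

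Cx3cr1, the receptor for neuronal Cx3cl1, had 3.65, 4.35, 5.35, 4.57 and 4.05 FPKM in R6/2 libraries, against 5.90, 4.80, 5.07, 5.98 and 7.33 FPKM in control libraries. R6/2 library 3 lay above the 2 lowest control libraries, so the groups overlapped. The log2 change was -0.33 (SE 0.12) and did not pass (limma adjusted p = 0.102). Mertk, a receptor kinase for the uptake of dying cells, had 5.34, 5.74, 5.80, 5.47 and 3.87 FPKM in R6/2 libraries, against 7.65, 6.38, 5.88, 6.86 and 6.46 FPKM in control libraries. The groups did not overlap, although R6/2 library 3 and control library 3 were nearly level. Its log2 change of -0.30 (SE 0.11) did not pass either (limma adjusted p = 0.105).

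Tgfbr1, the type I receptor for transforming growth factor beta, averaged 2.67 ± 0.548 FPKM in R6/2 and 3.57 ± 0.808 FPKM in controls (SD, n = 5 each; log2 change -0.31, limma adjusted p = 0.205). Csf1r, on whose signal microglia depend for survival, ranged over 6.98 to 9.51 FPKM in R6/2 and 7.61 to 9.49 FPKM in controls. The ranges overlapped almost wholly, and the log2 change was -0.12 (SE 0.10; limma adjusted p = 0.497). Per unit of Csf1r, P2ry12 ranged over 1.02 to 1.83 in R6/2 (median 1.15) and 1.55 to 2.06 in controls (median 1.67), as a description.

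Tmem119, a surface protein used to tell microglia apart from blood-derived macrophages, had 2.00, 2.51, 0.862, 2.02 and 2.14 FPKM in R6/2 libraries, against 3.67, 1.29, 1.13, 1.72 and 2.34 FPKM in control libraries. Both groups spread over the same levels, and the log2 change was -0.03 (SE 0.25; limma adjusted p = 0.96). Siglech, a sialic acid receptor, averaged 2.79 ± 0.776 FPKM in R6/2 and 3.37 ± 1.40 FPKM in controls, with control library 5 alone at 5.77 FPKM. Sall1, a transcription factor of microglial identity, averaged 2.54 ± 1.04 FPKM in R6/2 and 2.15 ± 0.422 FPKM in controls (SD, n = 5 each). Neither passed (limma adjusted p = 0.645 for Siglech and 0.702 for Sall1).

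Fcrls, an Fc receptor-like scavenger receptor, had 0.772, 0.350, 1.02, 0.373 and 0.574 FPKM in R6/2 libraries, against 0.509, 2.41, 1.22, 2.05 and 0.875 FPKM in control libraries. The control libraries were widely spread, and the log2 change of -0.53 (SE 0.26) did not pass (limma adjusted p = 0.234). Gpr34, a lysophosphatidylserine receptor (log2 change -0.13), Olfml3, a secreted olfactomedin-like protein (-0.07), and Selplg, the ligand of P-selectin (-0.04), had overlapping groups. The limma adjusted p-values of these 3 were 0.625, 0.885 and 0.956. Selplg varied the most in FPKM among the homeostatic genes, with 6.45 FPKM in R6/2 library 1 and 17.5 FPKM in R6/2 library 3.

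Itgb5, an integrin subunit that other brain cells also express, showed the highest log2 change of the homeostatic genes. It had 8.03, 9.98, 10.3, 15.9 and 6.24 FPKM in R6/2 libraries, against 5.97, 4.48, 5.86, 4.74 and 9.96 FPKM in control libraries. Control library 5 reached into the R6/2 range, and R6/2 libraries 1 and 5 lay within the control range. R6/2 library 2 was nearly level with control library 5. The log2 change was 0.61 (SE 0.25; limma adjusted p = 0.143).

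**Figure D3:**
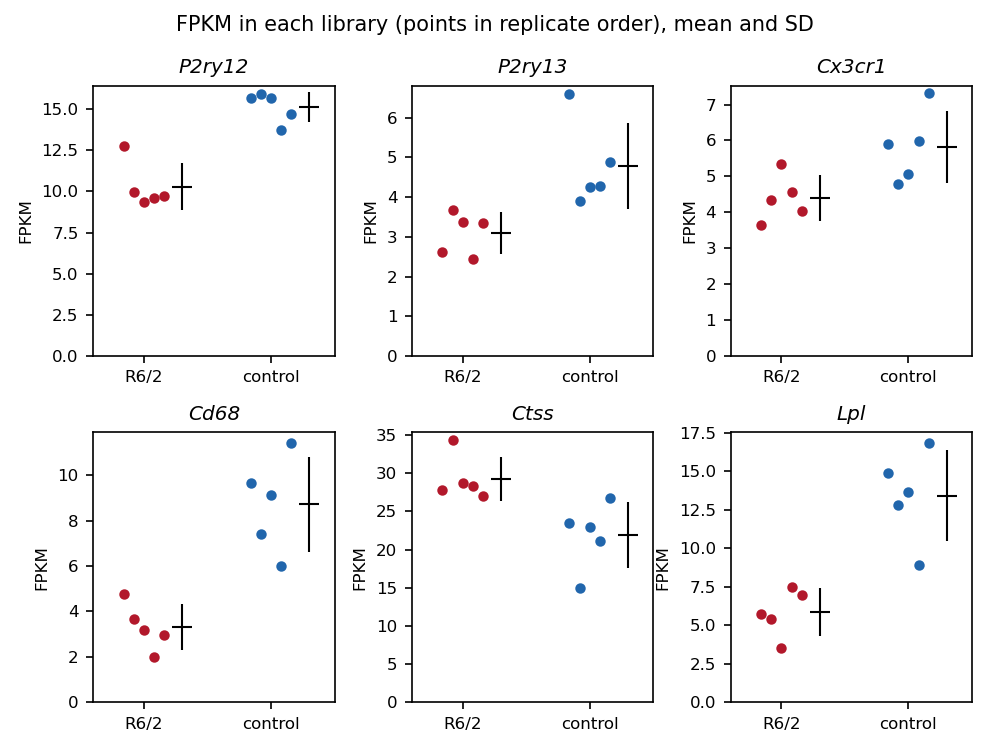
FPKM of P2ry12, P2ry13, Cx3cr1, Cd68, Ctss and Lpl in each library, R6/2 left and controls right, with the mean and SD of 5 libraries per group. P2ry12, P2ry13, Cd68 and Lpl are lower in every R6/2 library than in any control library, the groups overlap for Cx3cr1, and Ctss lies higher in R6/2 without passing the adjusted test.

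Cd68, a lysosomal membrane glycoprotein used as a marker of phagocytic macrophages, had the lowest log2 change of all tested members. It had 4.77, 3.68, 3.20, 2.01 and 2.98 FPKM in R6/2 libraries, against 9.65, 7.41, 9.10, 5.99 and 11.4 FPKM in control libraries. The highest R6/2 library stayed below the lowest control library. The means were 3.33 ± 1.01 FPKM in R6/2 and 8.71 ± 2.08 FPKM in controls (SD, n = 5 each), a ratio of 0.382 and a log2 change of -1.17 (SE 0.20; limma adjusted p = 0.00376). The gene (ENSMUSG00000018774.13) spans chromosome 11, 69664213 to 69666153, and shared no exon sequence with another annotated gene.

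Ctss, a lysosomal protease and the most abundant member, went the other way without passing. It had 27.8, 34.3, 28.7, 28.3 and 27.1 FPKM in R6/2 libraries, against 23.5, 15.0, 23.0, 21.1 and 26.7 FPKM in control libraries. The groups did not overlap, but R6/2 library 5 and control library 5 were nearly level. The means were 29.2 ± 2.91 FPKM in R6/2 and 21.9 ± 4.33 FPKM in controls (SD, n = 5 each), with a log2 change of 0.42 (SE 0.14; limma adjusted p = 0.0783). Leaving out control library 5 brought Ctss past the threshold (log2 change 0.50, adjusted p = 0.0414), as did quantile normalization (log2 change 0.48, adjusted p = 0.041), under which 6.97% of all tested genes were called higher. The ratio of Cd68 to Ctss, a description over the same libraries, was 0.0709 to 0.171 in R6/2 and 0.284 to 0.493 in controls.

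Aif1, the cytoskeletal protein Iba1 by which microglia are commonly stained, had 7.22, 3.59, 5.20, 6.42 and 5.63 FPKM in R6/2 libraries, against 6.81, 7.01, 10.3, 4.53 and 13.3 FPKM in control libraries. The control libraries were widely spread, and the log2 change of -0.46 (SE 0.26) did not pass (limma adjusted p = 0.29). Itgam, the integrin CD11b, had 4.71, 5.22, 4.45, 9.36 and 6.27 FPKM in R6/2 libraries, against 6.82, 6.87, 8.52, 7.61 and 9.001 FPKM in control libraries. All R6/2 libraries but library 4 lay below the controls. The log2 change was -0.36 (SE 0.17; limma adjusted p = 0.218), and without R6/2 library 4 it was -0.51 and passed (adjusted p = 0.0268).

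Spi1, which encodes PU.1, had 1.20, 2.50, 0.0640, 0.378 and 1.87 FPKM in R6/2 libraries, against 1.60, 1.58, 4.62, 2.36 and 1.69 FPKM in control libraries. R6/2 library 3 was near 0 and R6/2 library 2 lay above all controls but library 3, and the log2 change of -0.68 (SE 0.36) did not pass (limma adjusted p = 0.27). Laptm5, a lysosomal membrane protein of blood-lineage cells, averaged 10.8 ± 2.98 FPKM in R6/2 and 9.24 ± 3.23 FPKM in controls (SD, n = 5 each; log2 change 0.22, limma adjusted p = 0.576). For Ly86, a partner of a Toll-like receptor homologue, the log2 change was -0.13 (adjusted p = 0.655, limma).

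The remaining tested general myeloid genes stayed within 0.10 of 0 on the log2 scale. They were Fcgr3, a receptor for immunoglobulin G (-0.08), Ptprc, the leukocyte phosphatase CD45 (-0.06), Mpeg1, a pore-forming protein (0.02), and Cd53, a tetraspanin (0.03). Their limma adjusted p-values lay between 0.886 and 0.971. Of the 2 members too low to test, Itgb2, the beta subunit that pairs with Itgam, averaged 0.791 ± 0.471 FPKM in R6/2 and 0.790 ± 0.323 FPKM in controls. Irf8, a transcription factor of the macrophage lineage, averaged 0.764 FPKM in R6/2 and 1.04 FPKM in controls.

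Trem2, the lipid-sensing receptor needed for the full disease-associated state, had 1.29, 1.19, 0.265, 1.32 and 1.23 FPKM in R6/2 libraries, against 1.92, 1.08, 1.90, 0.748 and 1.74 FPKM in control libraries. R6/2 library 3 lay far below the other R6/2 libraries, and the groups overlapped. The log2 change was -0.27 (SE 0.24; limma adjusted p = 0.527). Tyrobp, the adaptor DAP12 that carries the Trem2 signal, averaged 8.30 ± 1.46 FPKM in R6/2 and 9.55 ± 2.16 FPKM in controls, and Fcer1g, the adaptor of Fc receptors, averaged 9.17 ± 2.91 FPKM in R6/2 and 11.8 ± 3.94 FPKM in controls (SD, n = 5 each). Neither adaptor passed (limma adjusted p = 0.533 for Tyrobp and 0.456 for Fcer1g).

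Lpl, lipoprotein lipase, was the only disease-associated member that passed the test, and it was lower. It had 5.76, 5.40, 3.53, 7.51 and 6.99 FPKM in R6/2 libraries, against 14.9, 12.8, 13.7, 8.91 and 16.8 FPKM in control libraries. No R6/2 library reached the lowest control, library 4. The means were 5.84 ± 1.55 FPKM in R6/2 and 13.4 ± 2.94 FPKM in controls (SD, n = 5 each), a ratio of 0.435 and a log2 change of -1.08 (SE 0.20; limma adjusted p = 0.00613). The gene (ENSMUSG00000015568.15) spans chromosome 8, 68880491 to 68907448. In brain, Lpl is also expressed by neurons, and their part in the difference was not tested.

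Axl, a receptor kinase related to Mertk that binds Gas6, had 4.14, 4.30, 3.85, 4.62 and 5.49 FPKM in R6/2 libraries, against 8.03, 7.45, 6.16, 4.04 and 8.25 FPKM in control libraries. Control library 4 alone fell into the R6/2 range. The log2 change was -0.48 (SE 0.17; limma adjusted p = 0.0939), and without control library 4 it was -0.63 and passed (adjusted p = 0.0104). Spp1, the secreted protein osteopontin, had 1.76, 1.84, 1.16, 0.427 and 1.86 FPKM in R6/2 libraries, against 2.62, 4.02, 1.43, 0.728 and 2.87 FPKM in control libraries. Both groups were widely spread, and its log2 change of -0.42 (SE 0.32) did not pass (limma adjusted p = 0.446).

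Cd9, a tetraspanin (log2 change -0.06), and Csf1, the ligand of Csf1r (log2 change 0.06), had overlapping groups, with limma adjusted p-values of 0.849 and 0.838. Cst7, an inhibitor of cysteine proteases whose rise marks the disease-associated state in mouse models, was too low to test. It had 0.758, 0.218, 0.449, 0 and 0.338 FPKM in R6/2 libraries, against 0.598, 0.670, 1.18, 0.749 and 0.210 FPKM in control libraries. Itgax, the integrin CD11c and another marker of that state, was listed at 0 in 2 R6/2 libraries and in 4 control libraries, and reached at most 0.0344 FPKM in R6/2 and 0.0429 FPKM in controls.

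Summed over the 14 homeostatic genes, expression had a median of 67.6 FPKM (59.2 to 73.9) in R6/2 and 73.9 FPKM (65.8 to 87.0) in controls. The general myeloid sum had a median of 72.1 FPKM (65.0 to 79.1) in R6/2 and 70.8 FPKM (59.1 to 96.2) in controls. The disease-associated sum, of which Lpl was the largest share in controls, had a median of 19.8 FPKM (18.2 to 26.0) in R6/2 and 33.3 FPKM (22.1 to 39.3) in controls. In all 3 sums the ranges of the groups overlapped. Among single libraries, control library 5 was the highest for 13 of the 33 tested members and the lowest for none, and R6/2 library 3 was the lowest for 7.

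In 5 further lists of related genes (other microglial genes, ligands and partners, other disease-associated genes, inflammatory mediators and proliferation genes), 9 of 59 tested genes (15.3%) passed in either direction, against 14.1% of all tested genes. Of 18 tested further microglial genes, 1 was higher and 1 lower (Rgs10), with a median log2 change of -0.09. Below the filter, Ltc4s (-0.47) and Il10ra (-0.28) are named after their values were seen. Both were called lower in the fit without a filter (limma adjusted p = 0.0299 and 0.0334), which called 1337 of 29024 genes lower. No gene of that list was called higher in it. Rgs10, a regulator of G protein signalling that microglia share with neurons, had 3.88, 2.52, 5.37, 4.99 and 5.27 FPKM in R6/2 libraries, against 17.5, 12.5, 10.6, 10.5 and 11.4 FPKM in control libraries (log2 change -1.33, SE 0.19; limma adjusted p = 0.00149). Its groups did not overlap. C1qc, a chain of complement C1q, averaged 5.95 ± 1.12 FPKM in R6/2 and 8.55 ± 1.82 FPKM in controls (SD, n = 5 each) and did not pass (log2 change -0.45; limma adjusted p = 0.105).

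Of the 14 tested ligands and signalling partners of the members, 2 were lower (Cx3cl1 and Smad3) and 1 was higher (Cd200). Over all tested genes, 9.11% were lower and 5.00% higher. Cx3cl1, the neuronal ligand of Cx3cr1, had 31.0, 30.6, 28.7, 34.8 and 28.8 FPKM in R6/2 libraries, against 73.0, 63.9, 65.3, 71.7 and 57.6 FPKM in control libraries. Its groups lay far apart, at 30.8 ± 2.48 FPKM in R6/2 and 66.3 ± 6.26 FPKM in controls (SD, n = 5 each; log2 change -1.08, SE 0.09; limma adjusted p = 4.91e-05). Cd200, a neuronal surface protein that restrains myeloid cells through its receptor, had 37.1, 36.8, 44.3, 63.8 and 38.6 FPKM in R6/2 libraries, against 20.5, 20.2, 20.8, 25.4 and 18.7 FPKM in control libraries. Every R6/2 library was higher than every control, with library 4 the highest of its group on both sides (log2 change 1.00, SE 0.15; limma adjusted p = 0.00216). Smad3, which carries the transforming growth factor beta signal to the nucleus in many cell types, had 26.3, 16.4, 17.9, 29.3 and 22.5 FPKM in R6/2 libraries, against 43.7, 44.8, 50.9, 59.1 and 39.0 FPKM in control libraries (log2 change -1.07, SE 0.17; limma adjusted p = 0.00285). Its groups did not overlap either. The other 11 tested partners did not pass, and the median log2 change of the list was -0.03.

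**Figure D4:**
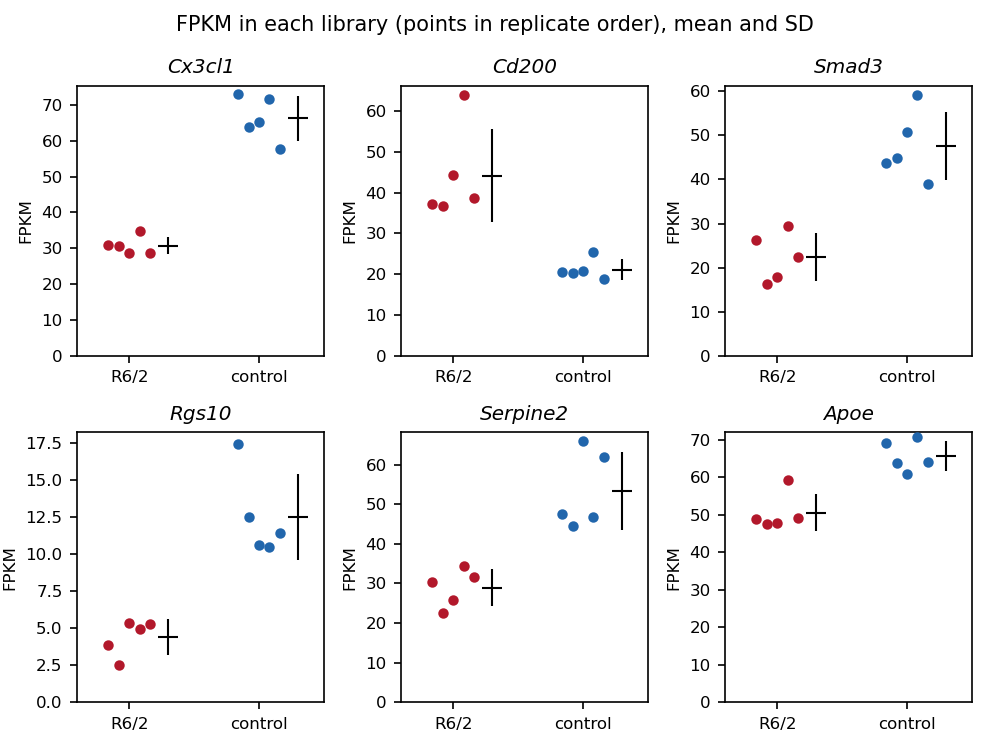
FPKM of Cx3cl1, Cd200, Smad3, Rgs10, Serpine2 and Apoe in each library, R6/2 left and controls right, with the mean and SD of 5 libraries per group. Cd200 is higher in every R6/2 library and Cx3cl1, Smad3, Rgs10, Serpine2 and Apoe are lower, with no overlap between the groups.

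Among 18 tested further disease-associated genes, 3 were lower, none was higher by limma (4 were higher at an unadjusted p under 0.05), and the median log2 change was -0.01. Apoe, the lipid carrier that astrocytes also make, averaged 50.5 ± 4.96 FPKM in R6/2 and 65.7 ± 4.03 FPKM in controls (SD, n = 5 each; log2 change -0.37, limma adjusted p = 0.0121). That call was lost after quantile normalization (log2 change -0.24, adjusted p = 0.105) and after rescaling to protein-coding genes (-0.26, adjusted p = 0.051). Serpine2, a secreted protease inhibitor, was also lower (log2 change -0.86; limma adjusted p = 0.00424), as was Npc2, a lysosomal cholesterol carrier (-0.39; limma adjusted p = 0.0223). The call for Npc2 held in 13 of 19 alternatives. It was lost after the same rescaling (-0.30, adjusted p = 0.0861), with a replicate block (adjusted p = 0.106) and without the filter on low values (adjusted p = 0.0503). Leaving out control library 2 (adjusted p = 0.0511) or 3 (adjusted p = 0.0548) lost it too. Clec7a, a receptor that marks the disease-associated state and is named here after its values were seen, was listed at 0 in every control library and at 0 to 0.188 FPKM in R6/2 libraries. Few fragments stood behind such values. In the fit without the filter its log2 change was 0.13 and did not pass (limma adjusted p = 0.166). No other gene of that list below the filter passed there either.

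Inflammatory mediators were mostly near the limit of detection: 13 of 19 were listed at 0 in at least 1 library, and 4 could be tested. Nfkbia, the NF-kappa-B inhibitor that NF-kappa-B itself induces in most cells, was higher, at 5.73 ± 1.71 FPKM in R6/2 and 2.73 ± 0.948 FPKM in controls (SD, n = 5 each; log2 change 0.85, limma adjusted p = 0.0242). Its groups overlapped, and the call held in 13 of 19 alternatives: it was lost without R6/2 library 3 or 4 and without control library 1, 3 or 5 (adjusted p between 0.0515 and 0.0614). The cytokine Il18 (log2 change -0.58; limma adjusted p = 0.0618) and the prostaglandin synthase Ptgs2 (-0.75; limma adjusted p = 0.245) did not pass. None of the 5 tested proliferation genes passed in limma or at an unadjusted p under 0.05, including Ccna2 (-0.48), Top2a (-0.48) and Mki67 (-0.31). Their limma adjusted p-values were 0.208, 0.218 and 0.269.

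Markers of other cells differed between the groups beside these results. For scale, 9.11% of all tested genes were called lower and 5.00% higher. Of 11 border macrophage markers, only the scavenger receptor Stab1 was abundant enough to test (log2 change 0.57; limma adjusted p = 0.501). Summed over the 11, the level ranged over 2.94 to 11.1 FPKM in R6/2 and 4.04 to 6.32 FPKM in controls. Markers below the filter are named after their values were seen. In the fit without it, which called 1337 of 29024 genes lower, Cd163 was called lower (log2 change -0.49, limma adjusted p = 0.0268). Pf4 (-0.45), Clec10a (-0.30), F13a1, Mrc1, Ccl24, Cd209f and Ms4a7 were below 0 without passing. Cbr2 (0.10) and Lyve1 (0.07) were above 0 without passing. None of 14 blood leukocyte markers reached the filter, all 14 were at 0 in at least 1 library, Cd3g and Nkg7 were at 0 in all 10, and the sums were 0.648 to 2.14 FPKM in R6/2 and 1.56 to 4.77 FPKM in controls. Of 10 astrocyte markers, 4 were lower, with the smallest p-values for Slc4a4 (log2 change -1.35), Slc1a2 (-0.90) and Gja1 (-0.79), with sums of 695 to 825 FPKM in R6/2 and 962 to 1205 FPKM in controls. Of 10 myelin markers, 7 were lower, among them Mobp (-1.05) and Ugt8a (-1.09), with sums of 733 to 1118 FPKM in R6/2 and 1578 to 1783 FPKM in controls. None of 8 tested endothelial markers passed in limma; Pecam1 (-0.32), Tek (-0.44) and Egfl7 (-0.31) had the smallest p-values. All 10 markers of spiny projection neurons were lower, with the smallest p-values for Drd2 (-2.46), Penk (-3.41) and Scn4b (-3.78), and sums of 216 to 352 FPKM in R6/2 and 1702 to 2155 FPKM in controls. The part of these other cell types in the members' results was not tested.

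Of 4 markers of cortical excitatory neurons, which striatum should lack, 1 was higher, while Neurod6 (log2 change 0.62) and Slc17a7 (0.77) did not pass (limma adjusted p = 0.0657 and 0.074). Their summed level was 48.3 to 83.9 FPKM in R6/2 and 21.5 to 47.0 FPKM in controls (exact permutation test, two-sided, p = 0.00794, the smallest that 5 against 5 allows; 0.0143 adjusted over 9 library measures). A cortical signal was then added as a term in the fit. It was not that sum but the mean over the 4 markers of log2(FPKM + 1), each centred on its own mean over all libraries. With it, no member passed in limma, and 3.18% of all tested genes were called lower and 0.704% higher, all at adjusted p under 0.05. At an unadjusted p under 0.05, 7 members were lower and 0 higher. The share of all tested genes at that unadjusted threshold was not computed for this fit. The changes were then -1.09 for Cd68 (adjusted p = 0.0999), -0.70 for Lpl (adjusted p = 0.21) and -0.42 for P2ry12 (adjusted p = 0.145). Smad3 (-0.81, adjusted p = 0.115), Rgs10 (-1.18, adjusted p = 0.0647), Serpine2 (-0.57, adjusted p = 0.157), Apoe (-0.34, adjusted p = 0.201), Npc2 (-0.29, adjusted p = 0.348) and Nfkbia (0.51, adjusted p = 0.438) did not pass with it either. Cd68, Lpl and P2ry12 kept their calls in the other 19 alternatives, and the part of the cortical signal in the results cannot be told apart from genotype, since the signal differed between the groups without overlap.

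**Figure D5:**
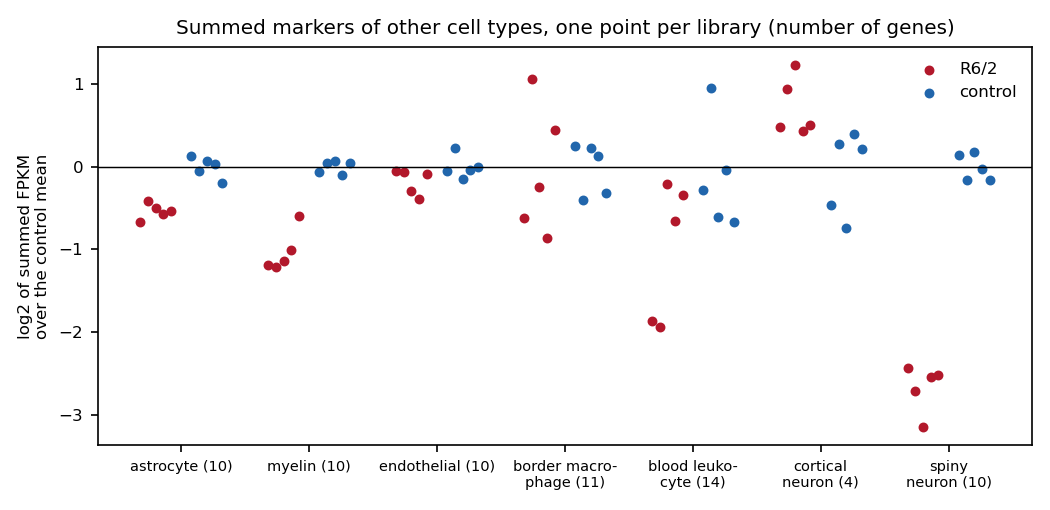
Summed FPKM of each marker list of other cell types in each library, as log2 of its ratio to the control mean, R6/2 left and controls right, with the number of genes in each list. The spiny neuron, astrocyte and myelin sums are lower and the cortical sum is higher in every R6/2 library than in any control library, while the endothelial, border macrophage and leukocyte sums overlap.

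The summed FPKM of protein-coding genes also differed, at 193203 to 202906 in R6/2 and 211209 to 219426 in controls (exact permutation test, two-sided, p = 0.00794). Rescaling these genes to one total raised the log2 change by a median of 0.10, over the 11681 genes tested both ways. Under it, the calls for P2ry12, Cd68 and Lpl remained, Ctss (0.53; limma adjusted p = 0.0115) and Itgb5 (0.71; limma adjusted p = 0.0406) passed as higher, and 14.1% of the 11693 genes tested were called higher and 9.29% lower. Over the genes tested both ways, 6.07% were called higher and 10.6% lower without rescaling.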

How the data were processed

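Total RNA from mouse striatum was sequenced in 5 R6/2 and 5 control libraries; per the labels' protocols it was amplified with the NuGEN Ovation kit, made into Nextera libraries and read on an Illumina HiSeq 2000. The deposited table holds FPKM (fragments per kilobase, scaled to depth) as the authors computed it, for 47632 Ensembl gene IDs. The submitters' processing notes name STAR 2.4.0, Cufflinks, Cuffdiff and GRCm38; the annotation release, strand setting and FPKM scaling were not given in the sources used here. Columns were matched to samples by the codes in the sample descriptions.

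Symbols came from GENCODE M21 by stable ID (47220 IDs matched). The 15905 genes that averaged 1 FPKM or more were tested on log2(FPKM + 1) with limma 3.58.1 in R 4.3.3, with genotype as the only term, a mean-variance trend and Benjamini-Hochberg adjustment over all tested genes. The script was tested on simulated data. A log2 change is R6/2 minus control in these units, and the added 1 FPKM makes changes of low genes look smaller than they are. Single measures per library were compared with two-sided exact permutation tests.

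The members and all lists were chosen with earlier results of these data known. All members were named; of every other list, the 3 tested genes with the smallest unadjusted p were named, except a few genes that are not reported here, and the few others are marked as chosen after their values were seen. Alternatives were another pseudocount, filter, scaling, weighting or variance model, a cortical covariate, a replicate block and leaving out each library. RefSeq promoters (GRCm38.p6) were matched by symbol.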

Additional observations from a re-analysis of the deposited data

Results flagged for a closer look

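In 9 of 74 groups (37 members in R6/2 and in controls, 5 libraries each) 1 library stood apart, with a gap to its nearest neighbour above 0.71 of the group's range. Independent normal values would give about 1 in 20 groups. FPKM this low, some at 0, are not such values, so no excess is read from the count. P2ry12 was high in R6/2 library 1, at 12.8 FPKM, still below all controls. Mertk was low in R6/2 library 5, at 3.87 FPKM, and Itgb2 was high there, at 1.63 FPKM. Ctss was high in R6/2 library 2, at 34.3 FPKM. Trem2 was low in R6/2 library 3, at 0.265 FPKM. In control library 5, Siglech (5.77 FPKM), Itgb5 (9.96 FPKM) and Itgax (0.0429 FPKM, the only control library above 0) were high. With all other controls at 0, the gap for Itgax had to equal the whole range. Spi1 was high in control library 3, at 4.62 FPKM.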

How the results depend on the processing

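The calls for Cd68, Lpl and P2ry12 held in 19 of 20 alternatives, the exception being the cortical covariate, under which 0 members, 506 genes lower and 112 genes higher passed. P2ry13 held in 4 of 19. Members called higher numbered 1 after quantile normalization (Ctss) and 2 after rescaling to protein-coding genes (Ctss and Itgb5), where 1644 genes were higher. With a mean of at least 5 FPKM the disease-associated median was -0.78, but only Lpl (-1.08) and Axl (-0.48) of that group were left. Leaving out each library in turn gave 3 to 4 members lower, 0 to 1 higher, 1193 to 1518 genes lower and 576 to 890 higher. Same-numbered libraries did not deviate together (correlations -0.05 to 0.05, and 1 of 5 R6/2 libraries best matched by its own number), so the numbers were not taken to pair the libraries; a replicate block gave 3 members lower, 975 genes lower and 370 higher. Signs turned only for genes that did not pass. The log2 change was -0.0081 for Cd53 with array weights, 0.031 for Cd9 rescaled, 0.065 for Selplg rescaled, and 0.025 (pseudocount 0.1) and 0.0098 (rescaled) for Ptprc. Tmem119 gave 0.013 (quantile), 0.044 (rescaled), 0.042 (array weights) and 0.20 (cortical covariate), and that covariate gave 0.25 for Trem2 and -0.0043 for Slc17a7. Slc17a7 is among the markers from which that covariate was built, so a change near 0 was fixed in advance. Without single libraries the log2 change ranged over -0.050 to 0.093 for Cd53, -0.14 to 0.075 for Cd9, -0.040 to 0.18 for Csf1, -0.21 to 0.055 for Fcgr3, -0.098 to 0.11 for Mpeg1, -0.17 to 0.047 for Olfml3, -0.24 to 0.12 for Ptprc, -0.018 to 0.23 for Sall1, -0.21 to 0.12 for Selplg and -0.14 to 0.14 for Tmem119. The cause was not tested. Depth limits members near 1 FPKM, where few fragments stood behind a value.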
